A study of Mus musculus with 10 samples.

Results

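The insulin-like growth factor (IGF) system was followed through 10 genes: the ligands Igf1 and Igf2, the receptors Igf1r and Igf2r, and the binding proteins Igfbp2, Igfbp3, Igfbp4, Igfbp5, Igfbp6 and Igfbp7. They were chosen by gene symbol, and each matched 1 of the 40690 genes of the count table. Of the 10, 9 were among the 13622 genes that passed the filter on low counts; Igfbp2 was not. The comparison was between the heart ventricles of 5 naive male C57BL/6 mice, which had no surgery, and those of 5 male C57BL/6 mice that had a sham operation for ischemia-reperfusion, all aged 10 weeks. A sham operation is the surgical control for a study in which a coronary artery is closed and reopened, and no group with a closed artery was analysed here. The labels name no transgene, drug or pooling, and the sources used here leave out how long after the operation the tissue was taken. The 2 groups differ by the operation as a whole, so its steps cannot be told apart.

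IGF1 and IGF2 are small secreted proteins related to insulin that signal growth and survival through the receptor tyrosine kinase encoded by Igf1r, while the protein encoded by Igf2r, which also binds mannose 6-phosphate, takes up IGF2 for breakdown in lysosomes. In blood and tissue most IGF is held by binding proteins, which lengthen its life, limit its access to the receptor and release it when proteases cut them. In the heart, IGF1 is known as a growth factor for muscle cells that can come from the liver through the blood or from local fibroblasts and macrophages.

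On GRCm38 coordinates of GENCODE M21, Igfbp2 (chr1:72824503-72852474, plus strand) and Igfbp5 (chr1:72857932-72874884, minus strand) end 5.46 kb from each other. Igfbp3 (chr11:7206086-7213923, minus strand) lies 3.54 kb from Igfbp1, and Igf2 (chr7:142650766-142666816, minus strand) lies 72.6 kb from the imprinted non-coding RNA gene H19. The other members were Igf1 (chr10:87858265-87937042, plus strand), Igf1r (chr7:67952827-68233668, plus strand), Igf2r (chr17:12682406-12769664, minus strand), Igfbp4 (chr11:99041244-99054392, plus strand), Igfbp6 (chr15:102144362-102149511, plus strand) and Igfbp7 (chr5:77349240-77408041, minus strand).

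The sequences shown are those just before the RefSeq start sites of the 4 binding protein genes that differed between the groups, to show how unlike each other these regions are. For Igfbp6 the sources disagree: the RefSeq start (chr15:102144186) lies upstream of the GENCODE M21 gene start (chr15:102144362). Its window and motif positions hold for the RefSeq start only. Each runs from 150 to 21 bases before the RefSeq start (GRCm38.p6), 5′ to 3′ on the gene's own strand, and none overlaps an annotated exon of GENCODE M21. Capitals mark the searched motifs on either strand: the GC box GGGCGG, the TATA box TATAAA, the CCAAT box CCAAT, the AP-1 motif TGANTCA and the TEAD motif GGAATG. A motif on the opposite strand appears as its reverse complement, and none of the marked motifs overlapped another.
Igfbp7, which rose (chr5:77408066-77408195, minus strand): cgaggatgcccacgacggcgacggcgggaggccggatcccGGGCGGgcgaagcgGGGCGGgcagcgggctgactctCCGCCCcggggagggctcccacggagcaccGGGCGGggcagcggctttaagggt
Igfbp4, which rose (chr11:99041094-99041223, plus strand): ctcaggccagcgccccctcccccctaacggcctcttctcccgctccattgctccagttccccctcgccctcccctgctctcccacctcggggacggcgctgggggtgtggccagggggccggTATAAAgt
Igfbp6, which rose (chr15:102144036-102144165, plus strand): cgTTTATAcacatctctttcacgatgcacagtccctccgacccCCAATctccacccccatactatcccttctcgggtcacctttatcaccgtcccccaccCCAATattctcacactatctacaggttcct
Igfbp5, which fell (chr1:72874886-72875015, minus strand): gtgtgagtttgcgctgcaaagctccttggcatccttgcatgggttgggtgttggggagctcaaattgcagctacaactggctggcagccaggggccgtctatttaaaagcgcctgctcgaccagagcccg

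The Igfbp7 window held 4 GC boxes and was 78.5% G and C, whereas the Igfbp6 window was 51.5% G and C. A TATA box stood 28 to 23 bases before the Igfbp4 start. The Igfbp6 window held 2 CCAAT motifs and 1 TATAAA match. That match lay on the opposite strand, 148 to 143 bases before the RefSeq start. The Igfbp5 window held no exact match to the searched motifs. Looser forms, such as other TATA-like sequences, were not searched, so a start without a TATA box is not read from this. Over all 32851 RefSeq windows of this length, GGGCGG was in 25.1%, CCAAT in 22.5%, TATAAA in 6.91%, GGAATG in 6.69% and TGANTCA in 3.82%, so each match is a description of the sequence only.

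The libraries held 9683181 to 21537135 counted reads, and 3 counts, the floor used for detection, corresponded to 0.122 to 0.357 CPM (counts scaled to a common library size with TMM factors; counting error only). The defining heart muscle markers were abundant in all 10 libraries, with a summed level of 78600 to 82000 CPM in naive and 58500 to 67700 CPM in sham libraries. Of 13622 genes tested, 32.7% passed an adjusted p under 0.05 (edgeR quasi-likelihood F test, Benjamini-Hochberg adjustment over all of them), with 2342 higher and 2113 lower in sham. When libraries were scaled by their size alone, without TMM factors, the split was 4473 higher and 283 lower. The median over tested genes then shifted by 0.26 (log2), so directions are relative to the bulk of genes. The TMM factors did not overlap between the groups, at 0.8696 to 0.9753 in naive and 1.043 to 1.147 in sham libraries. Why they differed was not tested. The sham 4 library was the deepest and had 24214 genes with at least 1 count, against 20842 to 22570 in the other sham libraries.

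After the sham operation, the ventricle held more RNA of the ligand Igf1 and of the binding proteins Igfbp7, Igfbp4 and Igfbp6, and less of the binding protein Igfbp5. Of the 9 tested members 4 rose (17.2% of all tested genes rose), 1 fell (15.5% of all fell) and 4 did not pass. Their median log2 fold change was 0.16, beside -0.05 over all tested genes. In Igf1 and Igfbp7 every sham library lay above every naive library, a pattern seen in 13.6% of all tested genes. In Igfbp5 every sham library lay below every naive library, as in 9.18% of all tested genes. Igf1 alone both passed and reached a 2-fold rise, as did 7.3% of all tested genes. These are counts over few genes, and nothing particular to the IGF system is read from them. In bulk tissue, more or fewer cells of a type and more or less RNA per cell cannot be told apart.

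**Figure D1:**
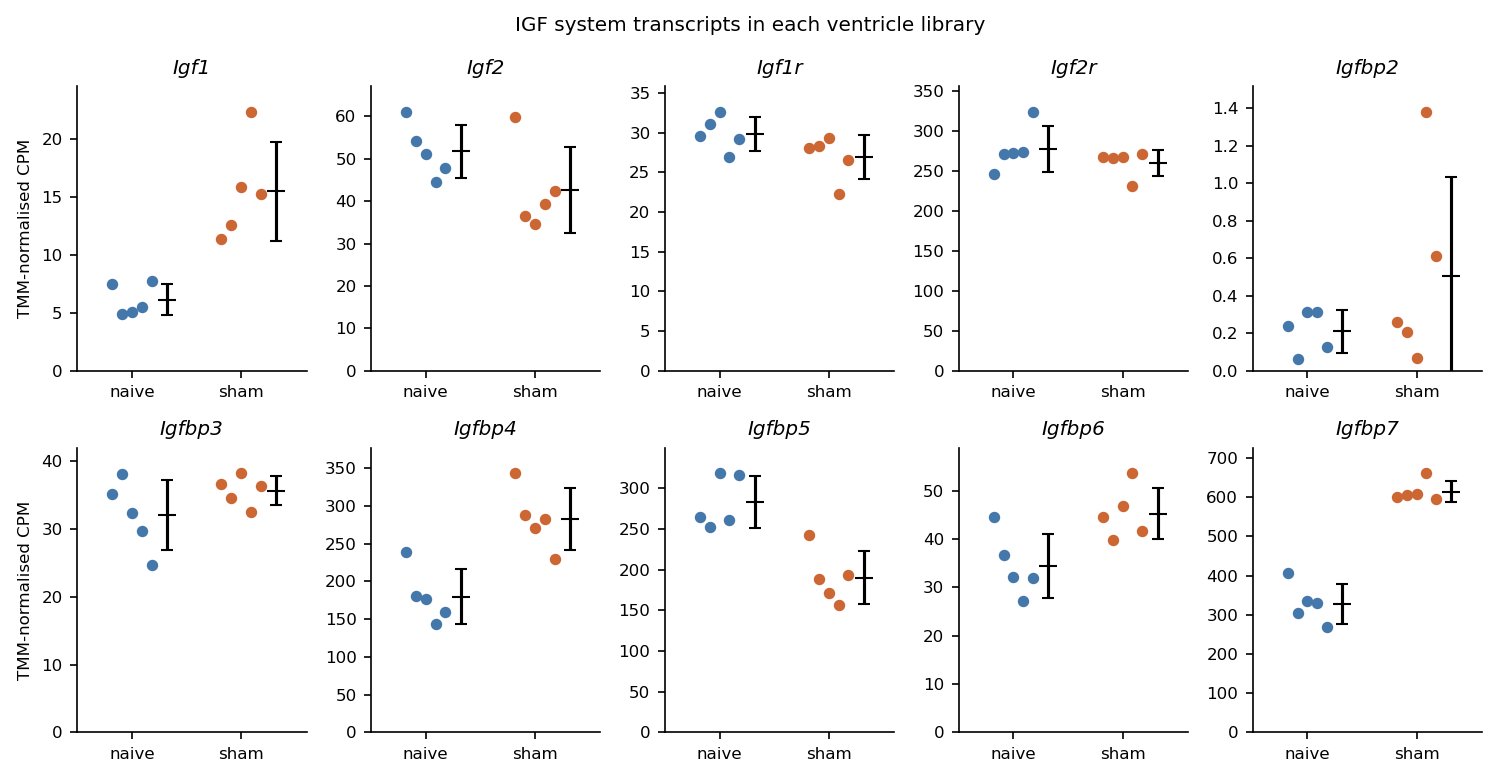
TMM-normalised CPM of the 10 IGF system genes in each library (points, replicates 1 to 5 from left to right; cross bar and whiskers, mean and SD of 5, cut at 0 for Igfbp2). The sham points of Igf1 (11.4 to 22.3) and Igfbp7 (596 to 661) all lie above the naive points, those of Igfbp5 (156 to 242) all lie below, and the Igfbp2 panel rests on 1 to 31 counts per library.

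Igf1 showed the largest fitted change among the 9 tested members. In naive libraries 1 to 5 its level was 7.5, 4.92, 5.06, 5.49 and 7.7 CPM, and in sham libraries 1 to 5 it was 11.4, 12.6, 15.8, 22.3 and 15.2 CPM. The lowest sham value was thus above the highest naive value, and sham 4 was the highest of all. The mean rose from 6.13 ± 1.36 to 15.5 ± 4.23 CPM (SD, n = 5), a 2.55-fold difference (log2 fold change 1.35 ± 0.19 SE, edgeR adjusted p = 4.77e-05). Its log2 fold change stood at the 95.1 percentile of all tested genes. Leaving out 1 library at a time gave 1.21 to 1.46, the lowest of these without sham 4.

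Igf2, the ligand best known from fetal growth, did not pass. Its naive levels were 61.0, 54.1, 51.2, 44.5 and 47.7 CPM and its sham levels 59.9, 36.6, 34.7, 39.2 and 42.4 CPM. Sham 1 stood among the naive libraries, and the other 4 sham libraries lay below all naive libraries. The means were 51.7 ± 6.34 and 42.6 ± 10.1 CPM (log2 fold change -0.28 ± 0.14 SE, 95% interval -0.57 to 0.01, edgeR adjusted p = 0.125). Without sham 1 the log2 fold change was -0.43 and passed (edgeR adjusted p = 0.00522). The gene shares 62.8% of its exon bases with Gm49394, a protein-coding gene model on the same strand in GENCODE M21. The count table held no gene under that symbol, and the annotation used for counting is not stated. The Igf2 level is thus uncertain if counting treated the shared exons as ambiguous, which was not tested. Per kb of exon, Igf1 made up 6.44% ± 1.38 of the summed Igf1 and Igf2 level in the naive group and 17.9% ± 5.51 in the sham group (SD, n = 5), with ranges of 5.00% to 8.54% and 9.93% to 24.8% that did not overlap.

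Neither receptor passed the test. Igf1r, which carries the growth signal of both ligands, was at 29.6, 31.1, 32.6, 26.9 and 29.2 CPM in naive and 28.1, 28.3, 29.3, 22.3 and 26.5 CPM in sham libraries. The groups overlapped, with sham 4 lowest. Its log2 fold change was -0.15 ± 0.09 (SE, 95% interval -0.36 to 0.05, edgeR adjusted p = 0.234). The interval leaves room for a fall but not for a rise of the size seen in Igf1. Scaling by library size alone turned the sign, to 0.11 for Igf1r and 0.17 for Igf2r, neither past the threshold.

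Igf2r was the more abundant receptor transcript, at 246, 271, 273, 274 and 324 CPM in naive and 267, 266, 267, 231 and 271 CPM in sham libraries. Of the sham libraries 4 lay within 5 CPM of each other and inside the naive range, and sham 4 lay below it. The log2 fold change was -0.09 ± 0.09 (SE, 95% interval -0.28 to 0.09, edgeR adjusted p = 0.454), and without sham 4 it was -0.02. Airn, an antisense RNA gene that lies over part of Igf2r, shared no exon bases with it and did not pass either (log2 fold change -0.18, edgeR adjusted p = 0.432).

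**Figure D2:**
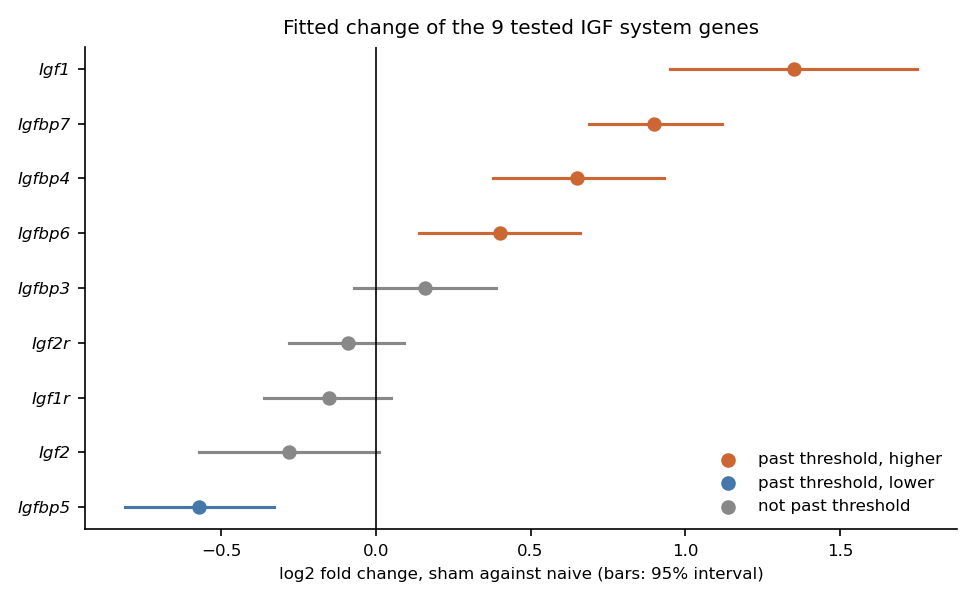
Fitted log2 fold change, sham against naive, of the 9 tested IGF system genes (points) with 95% intervals (bars), coloured by the edgeR call. Igf1 is highest at 1.35 and Igfbp5 lowest at -0.57, and the intervals of Igfbp3, Igf2r, Igf1r and Igf2 cross 0.

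Among the binding proteins, Igfbp7 rose most. It is a relative of the classical family that binds IGFs weakly and is found in vessel walls and matrix. In naive libraries 1 to 5 it stood at 407, 304, 336, 329 and 268 CPM and in sham libraries 1 to 5 at 601, 607, 609, 661 and 596 CPM. All sham libraries lay far above the naive ones, and 4 of them were close to each other. The mean rose from 329 ± 51.2 to 615 ± 26.4 CPM (SD, n = 5), 1.87-fold (log2 fold change 0.90 ± 0.10 SE, edgeR adjusted p = 4.92e-06). It shares 7.0% of its exon bases with Polr2b on the other strand, which was at a log2 fold change of -0.28 and did not pass (edgeR adjusted p = 0.329).

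Igfbp4, a binding protein that holds IGF away from its receptor until the protease PAPP-A cuts it, rose less. Its naive levels were 239, 180, 177, 144 and 159 CPM and its sham levels 343, 288, 271, 283 and 229 CPM. The lowest sham library, sham 5, lay just under naive 1, and the other 4 lay above all naive libraries. The fold was 1.57 (log2 fold change 0.65 ± 0.13 SE, edgeR adjusted p = 0.00120), from 180 ± 36.0 to 283 ± 40.7 CPM (SD, n = 5).

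Igfbp6, which prefers IGF2 over IGF1, rose by the smallest amount that passed. It was at 44.6, 36.7, 32.1, 27.1 and 31.9 CPM in naive and 44.5, 39.9, 46.9, 53.6 and 41.6 CPM in sham libraries. Naive 1 lay inside the sham range and the other naive libraries below it. The means were 34.5 ± 6.60 and 45.3 ± 5.37 CPM (SD, n = 5). The fitted log2 difference was 0.40 ± 0.12 (SE, edgeR adjusted p = 0.0204). It no longer passed without naive 3 (edgeR adjusted p = 0.0550) or without naive 4 (edgeR adjusted p = 0.0508).

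Igfbp5, a binding protein that also attaches to extracellular matrix and heparin, was the only tested member that fell. Naive libraries 1 to 5 held 265, 252, 318, 261 and 316 CPM and sham libraries 1 to 5 held 242, 188, 171, 156 and 193 CPM. Sham 1 was just below the lowest naive library and sham 4 was farthest from them. The mean fell from 282 ± 31.8 to 190 ± 32.6 CPM (SD, n = 5), to 0.673 of the naive level (log2 fold change -0.57 ± 0.11 SE, edgeR adjusted p = 0.00128). Igfbp5 stood at the 5.0 percentile of all log2 fold changes. Scaled by library size alone it was at -0.30 and did not pass (edgeR adjusted p = 0.0718).

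Igfbp3, the main carrier of IGF in blood, did not pass. Its naive levels were 35.2, 38.1, 32.4, 29.7 and 24.7 CPM and its sham levels 36.6, 34.6, 38.2, 32.5 and 36.4 CPM. The sham libraries lay within the naive range, apart from sham 3, which was just above it. The log2 fold change was 0.16 ± 0.11 (SE, 95% interval -0.07 to 0.39, edgeR adjusted p = 0.293). It passed as higher, at 0.43 (edgeR adjusted p = 0.00545), when scaled by library size alone.

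Igfbp2, a binding protein known from fetal tissue and liver, was at the limit of detection and was not tested. The naive libraries held 2, 1, 4, 4 and 2 counts of it and the sham libraries 3, 3, 1, 31 and 15 counts. Of the 53 sham counts, 46 came from sham 4 and sham 5, the 2 deepest libraries, where the level was 1.38 and 0.611 CPM. The other 3 sham libraries, at 0.0671 to 0.260 CPM, lay within the naive range of 0.0615 to 0.316 CPM. Without a filter the gene did not pass (log2 fold change 1.41, edgeR adjusted p = 0.0859).

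Among the 5 members that passed, sham 4 was the sham library farthest from the naive mean in 4, with Igfbp4 the exception. Sham 1 was nearest to it in Igf1 (log2 ratio 0.90, against 1.86 in sham 4) and Igfbp5 (-0.22, against -0.85 in sham 4). With naive 1 and sham 4 left out together, 4 members rose and 1 fell, as with all libraries.

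Levels between genes were compared per kb of exon. Igfbp7 led in both groups, at 272 ± 42.4 CPM per kb before any surgery and 509 ± 21.8 after it (SD, n = 5, as for all levels per kb). In naive libraries Igfbp5 (47.0 ± 5.29), Igfbp4 (40.7 ± 8.16), Igfbp6 (31 ± 5.93) and Igf2r (29.8 ± 3.05) followed, and the ranges of each of these neighbours in the order overlapped. Igfbp3 at 10.2 ± 1.65 and Igf2 at 9.03 ± 1.11 overlapped as well. Below them, without overlap, came Igf1r at 1.78 ± 0.127, Igf1 at 0.619 ± 0.137 and Igfbp2 at 0.114 ± 0.0616 CPM per kb.

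In sham libraries Igfbp5, at 31.7 ± 5.43 CPM per kb, moved from the second place to the fourth, behind Igfbp4 (64.0 ± 9.22) and Igfbp6 (40.7 ± 4.83), although its range overlapped that of Igfbp6 above it and that of Igf2r (28 ± 1.80) below it. Igf1 at 1.56 ± 0.427 stayed just below Igf1r at 1.6 ± 0.164, as in the naive order, but their ranges now overlapped. The length used was that of all annotated exon bases of a gene.

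**Figure D3:**
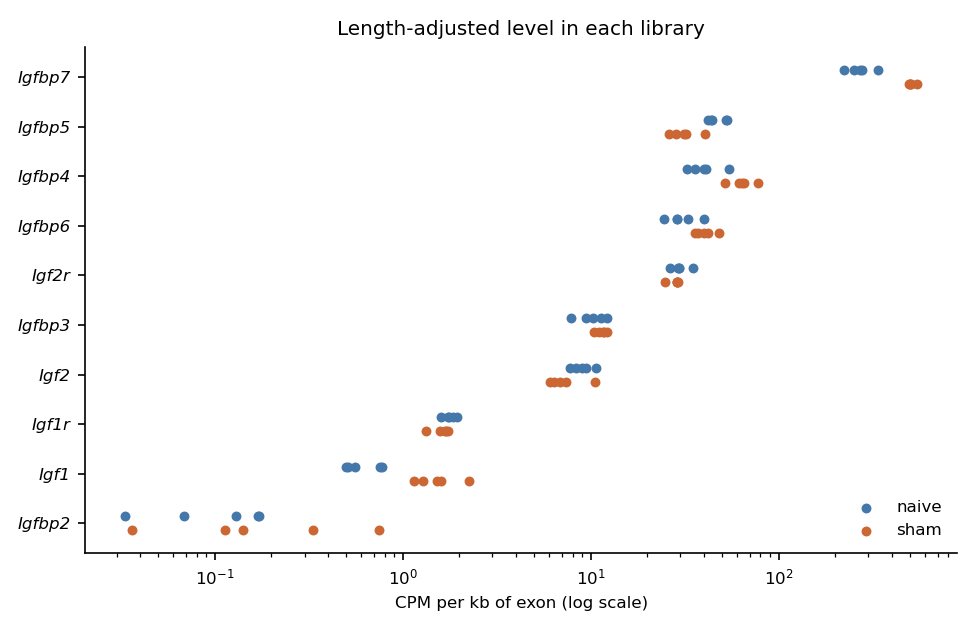
CPM per kb of annotated exon (log scale) of each IGF system gene, 1 point per library, in the order of the naive means. Igfbp7 stands at 222 to 337 in naive and 493 to 547 in sham libraries, while Igf1 moves from 0.497 to 0.778 up to 1.15 to 2.25, next to Igf1r.

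The summed level of Igfbp2 to Igfbp7 was 401 ± 52.7 CPM per kb in the naive group and 657 ± 26.3 in the sham group (SD, n = 5), with ranges of 347 to 486 and 627 to 696. Igfbp7 made up 67.7% ± 2.78 of it in naive and 77.5% ± 1.69 in sham libraries. The share of Igfbp5 was 11.9% ± 2.27 and 4.83% ± 0.861, with ranges of 9.07% to 15.2% and 3.74% to 6.05% that did not overlap. Igfbp4 held 10.1% ± 1.01 and 9.74% ± 1.25, although its own level was higher in sham. Igfbp3 went from 2.56% ± 0.379 to 1.74% ± 0.157 and Igfbp6 from 7.73% ± 0.983 to 6.19% ± 0.532. Since shares add up to a fixed total, a larger share of Igfbp7 lowers the others, and no test was made on them.

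**Figure D4:**
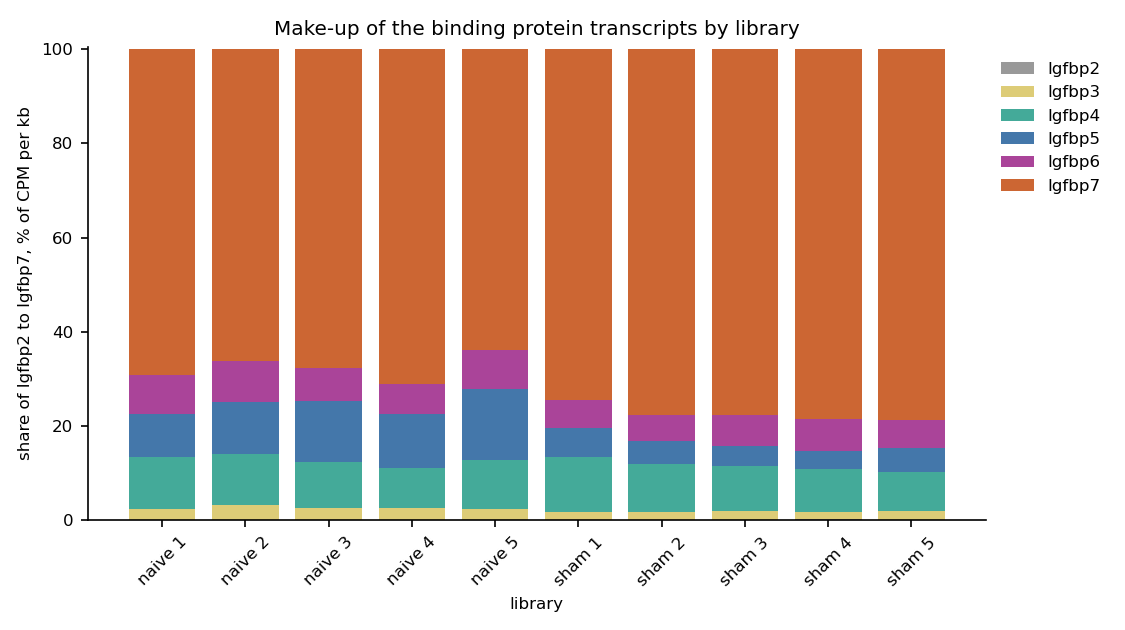
Share of each binding protein in the summed CPM per kb of Igfbp2 to Igfbp7, 1 bar per library. The Igfbp7 part runs from 63.9% to 71.2% in naive and from 74.5% to 78.7% in sham libraries, and the Igfbp5 part narrows; Igfbp2, at most 0.11%, is too thin to see.

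The other genes of the pathway were read from a list of 31, of which 24 were tested: 3 rose, 9 fell and 12 did not pass, beside 17.2% higher and 15.5% lower over all tested genes. Their median log2 fold change was -0.23, against -0.05 over all tested genes. The genes that fell included receptors and adaptors of insulin and growth hormone signalling. The insulin receptor Insr, which can pair with the IGF1 receptor, went from 159 ± 20.6 to 107 ± 20.8 CPM (SD, n = 5, log2 fold change -0.58 ± 0.13 SE, edgeR adjusted p = 0.00358). Irs1 and Irs2, the docking proteins that both receptors phosphorylate, were each at -0.63 (edgeR adjusted p = 0.0118 and 0.00851). In GENCODE M21, 30.9% of the exon bases of Irs1 are shared with other annotated genes, so its level is uncertain if counting treated these as ambiguous. That was not tested. Grb14, an adaptor that restrains the insulin receptor, was at -0.58 ± 0.08 (SE), with all 5 sham libraries (99.6 to 119 CPM) below all naive libraries (157 to 181 CPM).

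The growth hormone receptor Ghr, which drives Igf1 transcription in the liver, was at -0.45 ± 0.09 (SE, edgeR adjusted p = 0.00152), and Stat5b, the factor that carries its signal, at -0.40 ± 0.09 (edgeR adjusted p = 0.00386). Igfals, the blood subunit that joins IGF and Igfbp3, was at -0.44 ± 0.14 (edgeR adjusted p = 0.0238). Igfals lost its call in 6 of 24 alternatives: scaled by library size alone (edgeR adjusted p = 0.356), without naive 1 and sham 4 together (0.0744), and without naive 2 (0.0666), sham 2 (0.0729), sham 3 (0.0597) or sham 5 (0.0744). The kinase Akt2 at -0.20 and the transcription factor Foxo1 at -0.26 were close to the threshold (edgeR adjusted p = 0.0486 and 0.0461), and either lost its call in over 10 of 24 alternatives. Under scaling by library size alone, 1 of the 24 genes was lower and 5 were higher. Insr, Irs1, Irs2, Ghr and Stat5b lost their call there (edgeR adjusted p = 0.128, 0.143, 0.102, 0.189 and 0.362). Irs1 also lost it without naive 1 and sham 4 together (edgeR adjusted p = 0.0503).

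H19 rose most among the listed genes, from 17.1 ± 3.89 to 42.7 ± 6.52 CPM (SD, n = 5, log2 fold change 1.32 ± 0.15 SE, edgeR adjusted p = 4.53e-06). Its sham range of 33.3 to 50.3 CPM lay above the naive range of 12.6 to 22.1 CPM, while its neighbour Igf2 did not pass. Shc1, an adaptor of receptor tyrosine kinases, rose by 0.54 ± 0.08 on the log2 scale (edgeR adjusted p = 8.91e-05). Stc1, a secreted inhibitor of PAPP-A, was at 0.64 ± 0.21 (edgeR adjusted p = 0.0296), from a low level of 1.26 ± 0.239 to 2.01 ± 0.216 CPM. It lost its call in 7 of 24 alternatives, which were DESeq2, no filter, and leaving out naive 1, naive 2, naive 5, sham 1 or sham 3 (edgeR adjusted p of 0.0561 to 0.0705 in these 5).

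The proteases that cut binding proteins and their inhibitors otherwise did not pass. Pappa, which encodes PAPP-A, ran from 1060 to 3910 CPM in naive and from 1110 to 2830 CPM in sham libraries (log2 fold change -0.53 ± 0.39 SE, 95% interval -1.41 to 0.35, edgeR adjusted p = 0.344). This spread was wide, with a coefficient of variation of 47.1% in naive libraries. Per kb its mean of 220 CPM in naive libraries was the highest of the listed pathway genes, and whether these counts reflect Pappa transcripts was not tested, so its level is uncertain. Htra1, a protease that can cut Igfbp5, was at -0.19 (95% interval -0.38 to -0.01, edgeR adjusted p = 0.106) and passed as lower in 5 of 24 alternatives, and Stc2 at -0.11 (95% interval -0.35 to 0.13, edgeR adjusted p = 0.494). Igfbp1, Igfbpl1, Insrr, Irs4, Igf2bp1, Igf2bp3 and Pappa2 did not pass the filter on low counts (3 to 42 counts summed within a group).

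**Figure D5:**
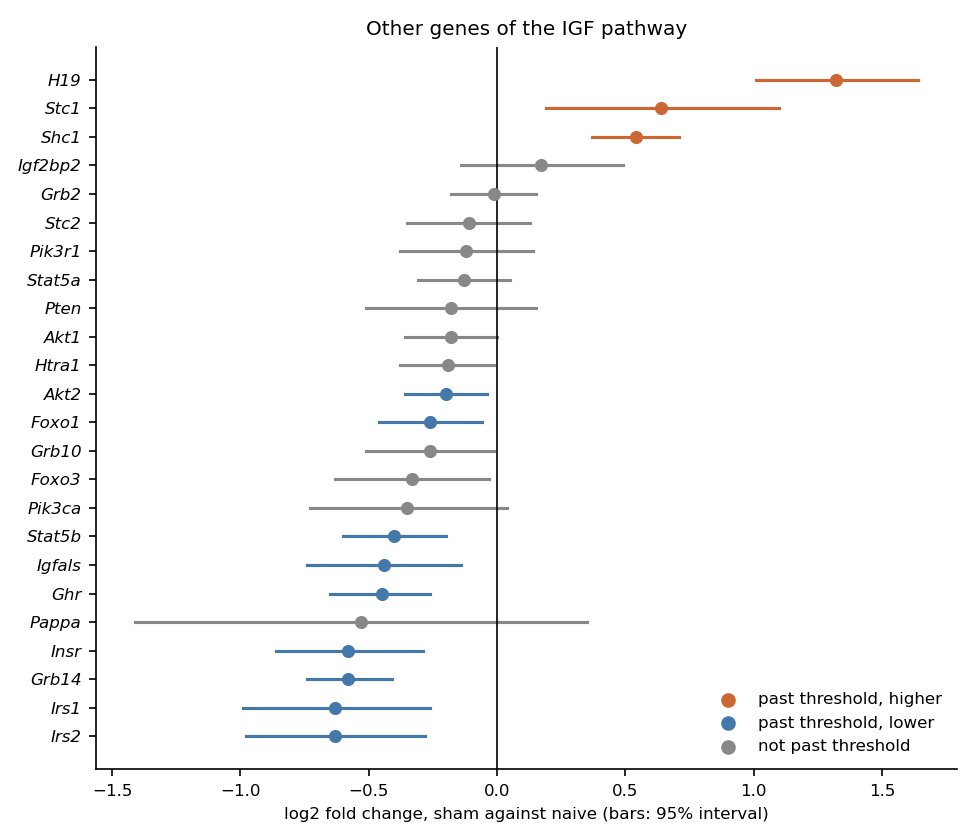
Fitted log2 fold change, sham against naive, of the 24 tested genes of the IGF pathway list (points) with 95% intervals (bars), coloured by the edgeR call. H19 is highest at 1.32, 9 genes from Akt2 at -0.20 to Irs1 and Irs2 at -0.63 fell, and Pappa has the widest interval.

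Markers of several cell types moved between the same groups, and their part in the results above was not tested. All 8 macrophage markers rose, with a summed level of 379 to 483 CPM in naive and 1160 to 1350 CPM in sham libraries. Of 8 fibroblast markers 7 rose and 1 did not pass, with a summed level of 1170 to 1560 and 9000 to 16200 CPM, most of it from the collagen genes Col1a1 and Col1a2. On the log2 scale the other 6 were Lum at 1.34, Dpt at 1.24, Fbln2 at 0.92, Tcf21 at 0.68, Pdgfra at 0.56 and Dcn at 0.31, the last of which did not pass. Of 8 endothelial markers 3 fell and 5 did not pass (1270 to 1530 and 1150 to 1270 CPM), and of 8 markers of pericytes and smooth muscle 1 rose, 2 fell and 5 did not pass (780 to 1120 and 841 to 1030 CPM). Of the 7 mesothelial markers measured, 3 fell and 4 did not pass (40.0 to 60.8 and 20.6 to 33.6 CPM). Of 8 heart muscle markers 7 fell and 1 did not pass.

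The 6 liver genes summed to 2.02 to 4.08 CPM in naive and 2.48 to 13.6 CPM in sham libraries. Most of the highest sham sum was Ttr, which had a sham maximum of 10.9 CPM and a sham median of 0.671 CPM. Albumin (Alb) was at 0 counts in every naive library and Serpina1c at 0 in all 10. None of the 6 adipocyte genes was high enough to be tested (0.758 to 2.74 and 0.604 to 1.83 CPM). Of the skeletal muscle list, Ckm, which the heart also makes, held nearly all the signal, and Myh1, Myh2, Myh4, Tnnt3 and Tnni2 each had a mean under 2 CPM in both groups. Red cell genes were present in every library and varied widely, with the list of red cell and B cell genes at 35.4 to 272 CPM in naive and 57.9 to 240 CPM in sham libraries. Its 3 red cell genes did not pass, and its 3 B cell genes were too low to be tested.

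Within the groups, the gene whose level followed Igf1 most closely was AI413582 (Pearson's r = 0.935 of log2 CPM after removal of each group's mean, 10 libraries, 8515 genes compared), followed by Mfap4, a microfibril protein (r = 0.918). For Igfbp5 they were Rgs6 (r = 0.943) and Spg20 (r = 0.940), and for Igfbp7 Phlda3 and N4bp3 (both r = 0.951). All of these share libraries and depth. Each was picked as among the highest of 8515 correlations over 10 libraries, which by itself favours a high r. Whether any r exceeded what such a selection gives was not tested. Scaled by size alone, AI413582 stayed first for Igf1 and Rgs6 for Igfbp5, but the second gene changed from Mfap4 to Ptgds for Igf1 and from Spg20 to Mtmr1 for Igfbp5. For Igfbp7 both were replaced, by Sdf2l1 and Mapk7.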

How the data were processed

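Ventricular RNA was selected with oligo(dT) and made into unstranded libraries read from one end, per the labels' protocols. The authors deposited 1 table of unnormalised read counts for each Ensembl gene, with a column for each sample, per the file headers. The submitters' processing notes name the build GRCm38 and the tools HTSeq, TopHat2 2.1.1, TopHat, Bowtie2, DESeq and edgeR, without roles. Which annotation release and counting mode were used is not stated in the labels or headers. The deposited table also gives GC content in percent, used only for a GC correction. Of 41264 rows, 574 repeated an identifier with identical counts and were collapsed to 40690 genes. Since strand is not marked, reads from exons where genes of opposite strands overlap cannot be assigned by strand. How such reads were counted is not stated.

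In edgeR 4.0.16, genes with low counts were removed by filterByExpr. A gene was kept if at least 5 libraries reached the CPM of 10 counts at the median library size, with at least 15 counts in sum. The kept genes were scaled with TMM and tested with the quasi-likelihood F test with robust estimation, group alone. Benjamini-Hochberg adjustment was over 13622 genes at 0.05. Each SE was obtained by dividing the fitted log2 difference by the square root of its F value. The 24 alternatives changed the tool (DESeq2 1.42.0 or limma 3.58.1, in R 4.3.3), the scaling, the filter, the genes or libraries kept, a GC correction or a replicate block. On simulated counts (13470 genes, 4 false among 149 calls), 56.7% of 60 genes changed 1.5-fold were recovered. The same held for 77.4% of 62 changed 2-fold and 98.4% of 64 changed 4-fold. In the data a far larger share of genes was called (32.7%), and the adjustment depends on that share. These rates are thus not the power of the main test. The labels give separate samples but not how mice were housed or operated, so a p-value here reflects only how these samples vary, which may be partly technical.

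Genes named were the 10 members, genes of the 31-gene pathway list, marker lists and, for each tested member, the 2 genes of mean log2 CPM of at least 3 with the highest within-group correlation. The members, lists and alternatives were chosen with earlier results of these data known. Coordinates are from GENCODE M21, matched by identifier for all 112 listed genes, and start regions from RefSeq (GRCm38.p6), which had an entry for all 10 members.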

Additional observations from a re-analysis of the deposited data

Results flagged for a closer look

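In 20 checks of 5 libraries each (10 members in both groups), chance alone would mark about 1 in 20, and 2 were marked because 1 library stood far from the other 4. Both were in sham 4, the deepest library. Igf2r stood at 231 CPM there, with the nearest sham library at 266 CPM, a gap of 0.874 of the range of the group. Igfbp7 stood at 661 CPM, with the nearest at 609 CPM, a gap of 0.809 of the range. Without sham 4 the log2 fold change of Igfbp7 was 0.91 (edgeR adjusted p = 7.78e-06) and that of Igf2r -0.02 (edgeR adjusted p = 0.870). Why this library differed was not tested.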

How the results depend on the processing

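Igf1, Igfbp4 and Igfbp7 kept direction and call in all 24 alternatives (log2 fold changes of 1.21 to 1.61, 0.57 to 0.92 and 0.84 to 1.18). Igfbp6 lost its call in 2 and Igfbp5 in 1, named above. Igf2 passed as lower with limma voom (adjusted p = 0.00734), the GC correction (edgeR adjusted p = 0.0399), the replicate block (edgeR adjusted p = 0.0177), both of these together (edgeR adjusted p = 0.00388) and without sham 1. So the number of lower members was 2 in each of these and 0 with library size alone, and leaving out 1 library gave 1 to 2. With size scaling alone 4473 genes were higher and 283 lower, the pathway list had 5 higher and 1 lower, and the sign turned for Igf1r (0.11), Igf2r (0.17), Akt2 (0.07), Foxo1 (0.01), Stc2 (0.16) and Htra1 (0.07), none of them past the threshold. With limma voom 3243 of all genes were lower. Leaving out naive 1 and sham 4 together left 6 lower pathway genes of 9. In CPM in place of CPM per kb, the share of Igfbp4 among binding proteins was 3.25 percentage points higher in sham where per kb it was -0.375, and the differences were -16.9 for Igfbp5, -0.13 for Igfbp6 and 14.5 for Igfbp7; the change of scale gives long transcripts more weight. Same-numbered libraries correlated at 0.01 to 0.29 in their deviations from the group means, and 3 of 5 naive libraries correlated best with their own number. The labels name no pairs or batches, so the main test used none. Whether equal numbers mark something shared was not tested, and these values do not exclude it. With the replicate block, 2592 genes were higher and 2801 lower. At these depths 3 counts limit Igfbp2.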
